A study of Mus musculus with 28 samples.

Results

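Plac8, Pira1, Tph1 and Agtr1a are 4 genes whose mRNA was high in normal luminal cells of the mouse mammary gland and lower in luminal cells and tumours that expressed mutant PIK3CA. They were picked from 17097 genes on the arrays by name, for that low level, so their levels in the groups that showed it are given as a description with no test. Each gene has 1 probe set that the platform annotation assigns to it alone. Plac8 (gene identifier 231507), Pira1 (18722), Tph1 (21990) and Agtr1a (11607) were followed across all 11 groups and 28 arrays.

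The milk-producing gland has a luminal layer, which holds hormone-sensing cells with oestrogen and progesterone receptors and progenitors of the milk-secreting cells, and a basal layer of contractile myoepithelial cells. Tph1 encodes tryptophan hydroxylase, the rate-limiting enzyme of serotonin synthesis outside the brain, and serotonin made by mammary epithelium is known as a local signal in lactation and involution. Agtr1a encodes an angiotensin II receptor coupled to G proteins, the main receptor of the renin-angiotensin system for vasoconstriction. Pira1 encodes a paired immunoglobulin-like receptor of the activating kind, known from myeloid cells, where it signals through the adaptor encoded by Fcer1g and is opposed by the inhibitory receptor encoded by Pirb. Plac8 encodes a small cysteine-rich protein first described in placenta.

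The mice were females given 3 injections of 5 mg tamoxifen, 3 days apart, from an age of 4 to 5 weeks. All carried RosaYFP, a fluorescent reporter that Cre switches on, and a tamoxifen-dependent Cre driven by the keratin 8 promoter (K8CREERT2, luminal cells) or the keratin 5 promoter (K5CREERT2, basal cells). Normal cells came from K8CREERT2/RosaYFP mice through a luminal gate and from K5CREERT2/RosaYFP mice through a basal gate, with 2 arrays for each gate at 8 weeks and 2 at 10 months after tamoxifen. Mutant cells carried PIK3CA-H1047R, an activated form of the PI3-kinase catalytic subunit. From mice with the genotype K8CREERT2/PIK3CA-H1047R/RosaYFP both layers were sorted at 8 weeks, and from mice with the genotype K5CREERT2/PIK3CA-H1047R/RosaYFP at 10 months, with 2 arrays for each layer. All sorted cells were positive for YFP. These basal cells at 8 weeks and luminal cells at 10 months had therefore been marked through a driver of the other layer. Tumour cells came from K8CREERT2/PIK3CA-H1047R/RosaYFP mice (7 arrays, here K8PIK tumours), K5CREERT2/PIK3CA-H1047R/RosaYFP mice (3 arrays, K5PIK tumours) and K8CREERT2/PIK3CA-H1047R/p53flox/flox/RosaYFP mice (2 arrays, K8PIKp53 tumours). The normal cells compared with mutant basal cells at 8 weeks, and with mutant luminal cells at 10 months, came from mice with the other Cre driver. The same holds for K5PIK tumours, since all YFP luminal cells came from K8CREERT2 mice. Driver and oncogene cannot be told apart in those comparisons. For the tumours no time after tamoxifen is recorded, so time cannot be told apart from tumour state either. The labels do not say whether replicates are separate animals, so any p-value measures only the spread between these samples.

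Values are the deposited log2 intensities, where a difference of 1 is a 2-fold change. The 40th percentile of an array, used here as the limit for a dim gene, lay between 3.89 and 3.99. The gates matched their labels: the mean of 14 basal markers was 5.66 to 6.51 in YFP luminal cells and 9.37 to 9.76 in YFP basal cells. Mutant luminal cells at 8 weeks stood between, at 6.58 and 7.30, and those at 10 months were at 6.70 and 6.72. The mean of 13 general luminal markers was 10.78 to 11.02 in YFP luminal cells, 10.9 on both arrays of mutant luminal cells at 8 weeks, and 10.6 and 10.7 at 10 months. Replicates correlated across genes at 0.973 to 0.995 in sorted cells and at 0.919 to 0.982 in tumours. With so few arrays per group, their number limits the precision of every comparison.

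**Figure D1:**
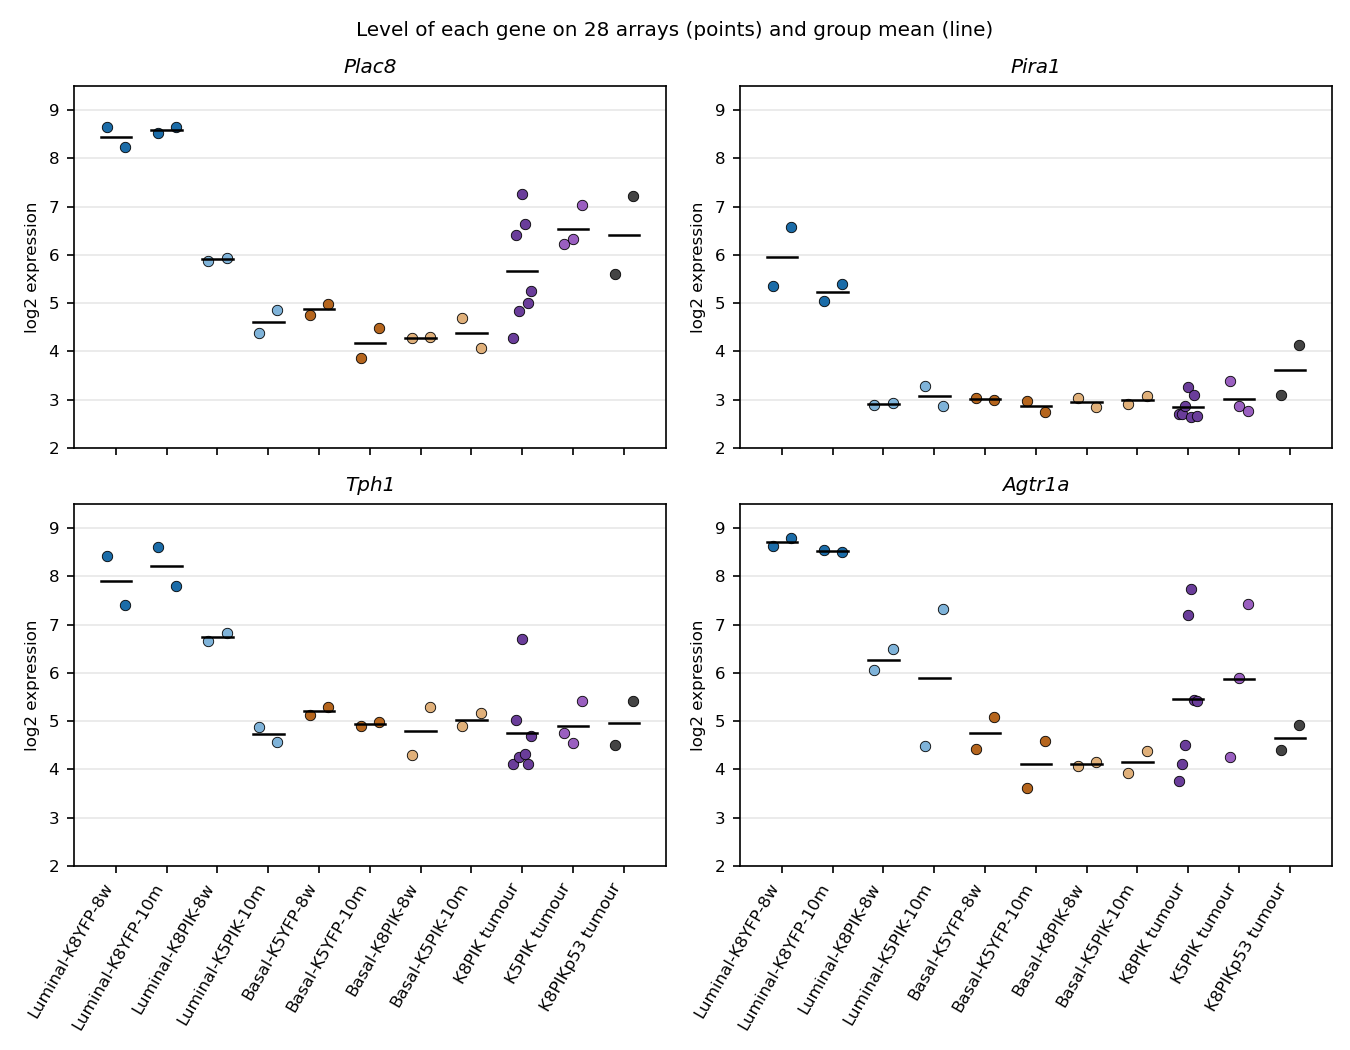
Log2 expression (y axis) of Plac8, Pira1, Tph1 and Agtr1a in 11 groups (x axis); each point is 1 of 28 arrays and each line a group mean. The 4 YFP luminal arrays lie above all other arrays for each gene, with the closest values in Agtr1a (8.51 against 7.73 in 1 K8PIK tumour) and Tph1 (7.40 against 6.82 in mutant luminal cells).

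The 4 genes were higher in luminal than in basal normal cells, and lower in mutant luminal cells and tumours to differing extents. Plac8 and Tph1 stayed above the 40th percentile in every mutant luminal and tumour array and Agtr1a in all but 1 tumour, while Pira1 was below it on each of these arrays except 1. Most YFP basal arrays also lay above that limit for Plac8, Tph1 and Agtr1a, so the basal values are given beside the mutant ones throughout.

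Plac8 lay at intermediate levels in several tumours, between those of normal luminal and basal cells. YFP luminal cells had 8.66 and 8.23 at 8 weeks and 8.53 and 8.64 at 10 months. YFP basal cells had 4.76 and 4.99 at 8 weeks and 3.86 and 4.48 at 10 months. The layers did not overlap at either time, and the basal mean was 3.57 (8 weeks) and 4.42 (10 months) below the luminal mean on the log2 scale.

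Mutant luminal cells had less Plac8 mRNA at both times. At 8 weeks their values were 5.88 and 5.93, a mean difference of -2.54 from YFP luminal cells, or 5.80-fold. At 10 months they were 4.38 and 4.86, a difference of -3.97, or 15.7-fold. The values at 10 months lay inside the range of YFP basal cells, and those at 8 weeks lay above it. In these bulk samples fewer cells with the transcript and less transcript per cell cannot be told apart.

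Tumours spanned a wide range of Plac8. The 7 K8PIK tumours ran from 4.28 through a median of 5.25 to 7.25, the 3 K5PIK tumours had 6.22, 6.33 and 7.04, and the 2 K8PIKp53 tumours 5.61 and 7.22. No tumour reached the lowest YFP luminal array, and 7 of 12 tumours lay above both mutant luminal arrays of 8 weeks. Against the mean of YFP luminal cells at both times the differences were -2.85, -1.99 and -2.10 for the K8PIK, K5PIK and K8PIKp53 tumours. The last rests on 2 arrays that disagree: it is -1.29 without replicate 1 and -2.91 without replicate 2.

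Pira1 was above the 40th percentile on the 4 normal luminal arrays and on 1 other. YFP luminal cells had 5.35 and 6.58 at 8 weeks and 5.05 and 5.41 at 10 months, between the 59.2 and 76.8 percentile of their arrays. Mutant luminal cells had 2.88 and 2.93 at 8 weeks and 3.28 and 2.87 at 10 months, measured differences of -3.06 and -2.15 on the log2 scale. With these dim values set to the 40th percentile of their arrays, mean Pira1 was at least 4.19-fold lower at 8 weeks and at least 2.40-fold lower at 10 months. These limits take the YFP luminal means of 5.97 and 5.23 as given, the former from 2 unequal arrays. YFP basal cells had 3.03 and 3.00 at 8 weeks and 2.98 and 2.75 at 10 months, and all 8 basal arrays lay between 2.75 and 3.07. The mutant luminal values overlapped the basal ones, and every one of these 12 arrays was below the 40th percentile.

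Tumours were also dim for Pira1, with 1 exception. K8PIK tumours ran from 2.63 through a median of 2.70 to 3.26, and K5PIK tumours had 3.38, 2.88 and 2.76. The K8PIKp53 tumours had 3.10 and 4.14, and the latter was the sole array outside YFP luminal cells above the 40th percentile. Values this low carry little information on differences, and no order is read from them. The measured 8-week difference also depended on the 2 unequal YFP arrays, being -3.68 without replicate 1 and -2.44 without replicate 2.

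Pira genes are near-identical copies of one another. The annotation gives this probe set 1 symbol, but none of 6 other Pira genes looked up (Pira2, Pira4, Pira5, Pira6, Pira7 and Pira11) had a probe set of its own, so which copy hybridised was not tested. Pirb, the inhibitory counterpart, stayed between 4.00 and 4.80 on all 28 arrays, and Lilrb4a, another inhibitory receptor of this kind, ran from 4.42 to 8.04 with its highest value in a K8PIK tumour. Fcer1g was at 5.16 and 6.04 in YFP luminal cells at 8 weeks, 5.53 and 5.51 at 10 months, against 5.90 to 6.53 in YFP basal cells and 5.48 to 7.99 in K8PIK tumours. None of these 3 partner genes was highest in normal luminal cells.

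Because Pira1 is known from myeloid cells, leukocyte markers were read beside it. The mean of 18 leukocyte markers was 4.34 and 5.08 in YFP luminal cells at 8 weeks and 4.55 and 4.58 at 10 months, against 5.05 to 5.43 in YFP basal cells, in which Pira1 was dim. Ptprc, the pan-leukocyte antigen CD45, was 2.81, 3.38, 2.81 and 2.70 on the 4 YFP luminal arrays, and Ptprc, Itgam, Cd3e, Ms4a1 and Ly86 were below the 40th percentile on each of them. Of the 18 markers, 11 to 13 were above it on these arrays. Within the 8-week pair, the array with more Pira1 (6.58) also had the higher marker mean (5.08) and more Cd74, a chaperone of antigen presentation (7.48 against 5.81). K8PIK tumours, with marker means of 4.61 to 6.14, had no array with Pira1 above the 40th percentile. The part of leukocytes in the Pira1 signal was not tested further.

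Tph1 was intermediate in mutant luminal cells at 8 weeks and low in those of 10 months. YFP luminal cells had 8.42 and 7.40 at 8 weeks and 8.61 and 7.81 at 10 months. Mutant luminal cells had 6.65 and 6.82 at 8 weeks, against 4.89 and 4.56 at 10 months. The former lay between the YFP luminal arrays and the basal arrays without touching either, while the latter lay below all 4 YFP basal arrays. The mean differences were -1.17 (2.26-fold) at 8 weeks and -3.48 (11.2-fold) at 10 months. The 8-week difference was the smallest of the 4 genes and is -0.66, under 2-fold, without YFP replicate 1. These times also differ in Cre driver, so time and driver cannot be told apart. Cells other than epithelium that make Tph1 include mast cells, and of 8 mast cell markers 5 (Cpa3, Mcpt4, Tpsab1, Fcer1a and Ms4a2) were below the 40th percentile on each YFP luminal array. The others are Tpsb2, Cma1 and Hdc, the histamine-forming enzyme. On each YFP luminal array 2 or 3 of the 8 were above that limit. Hdc was at 4.17 to 4.58 in YFP luminal cells and 4.51 to 5.19 in YFP basal cells. The mean of the 8 markers was 3.55 to 3.67 in YFP luminal cells and 3.61 to 4.16 in YFP basal cells. The part of mast cells in the Tph1 signal was not tested.

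Basal cells of every genotype had Tph1 between 4.29 and 5.30, with YFP basal cells at 5.13 and 5.30 at 8 weeks and 4.91 and 4.98 at 10 months. K8PIK tumours ran from 4.11 through a median of 4.31 to 6.70, K5PIK tumours had 4.75, 4.55 and 5.43, and K8PIKp53 tumours had 4.50 and 5.42. All 12 tumours lay below the YFP luminal arrays, and 11 of 12 below the mutant luminal arrays of 8 weeks. Differences from YFP luminal cells were -3.32, -3.15 and -3.10, nearly equal in the 3 tumour groups. The tumour at 6.70, replicate 4 of the K8PIK tumours, also had the highest Plac8 (7.25) and the second highest Agtr1a (7.21) of that group.

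Agtr1a was even across normal luminal cells and uneven between replicates in mutant luminal cells at 10 months and in K8PIK and K5PIK tumours. YFP luminal cells had 8.64 and 8.79 at 8 weeks and 8.55 and 8.51 at 10 months, while YFP basal cells had 4.41 and 5.09, then 3.61 and 4.60. Mutant luminal cells at 8 weeks had 6.05 and 6.49, a difference of -2.44 or 5.44-fold. At 10 months the replicates disagreed, at 4.48 and 7.32. Replicate 1 lay inside the range of YFP basal cells and replicate 2 above both mutant arrays of 8 weeks. The mean difference of -2.63 therefore stands for no array: it is -1.21 without replicate 1 and -4.05 without replicate 2.

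Tumours of the same genotype also disagreed. K8PIK tumours ran from 3.75 through a median of 5.42 to 7.73, and K5PIK tumours had 4.26, 5.90 and 7.44, each reaching from levels within the range of YFP basal cells to levels above the mutant luminal cells of 8 weeks. The K8PIKp53 tumours were low, at 4.40 and 4.92. Differences from YFP luminal cells were -3.17, -2.76 and -3.96 in the K8PIK, K5PIK and K8PIKp53 tumours. The K5PIK value is -1.95 without replicate 1 and -3.54 without replicate 3.

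Ordered by group mean, YFP luminal cells were at the top for each gene, and beyond them the order differed. For Plac8 the next groups were K5PIK tumours, K8PIKp53 tumours and mutant luminal cells at 8 weeks, whose ranges overlapped from neighbour to neighbour. For Tph1 the mutant luminal cells at 8 weeks came next, apart from both neighbours, and the 8 groups below overlapped one another in turn. For Agtr1a the mutant luminal cells of both times came next, overlapping each other and the K5PIK tumours. For Pira1 the 9 remaining groups overlapped from neighbour to neighbour. The 2 YFP luminal ages overlapped for 3 genes and stood 0.18 apart for Agtr1a (8.71 at 8 weeks and 8.53 at 10 months, means of 2).

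**Figure D2:**
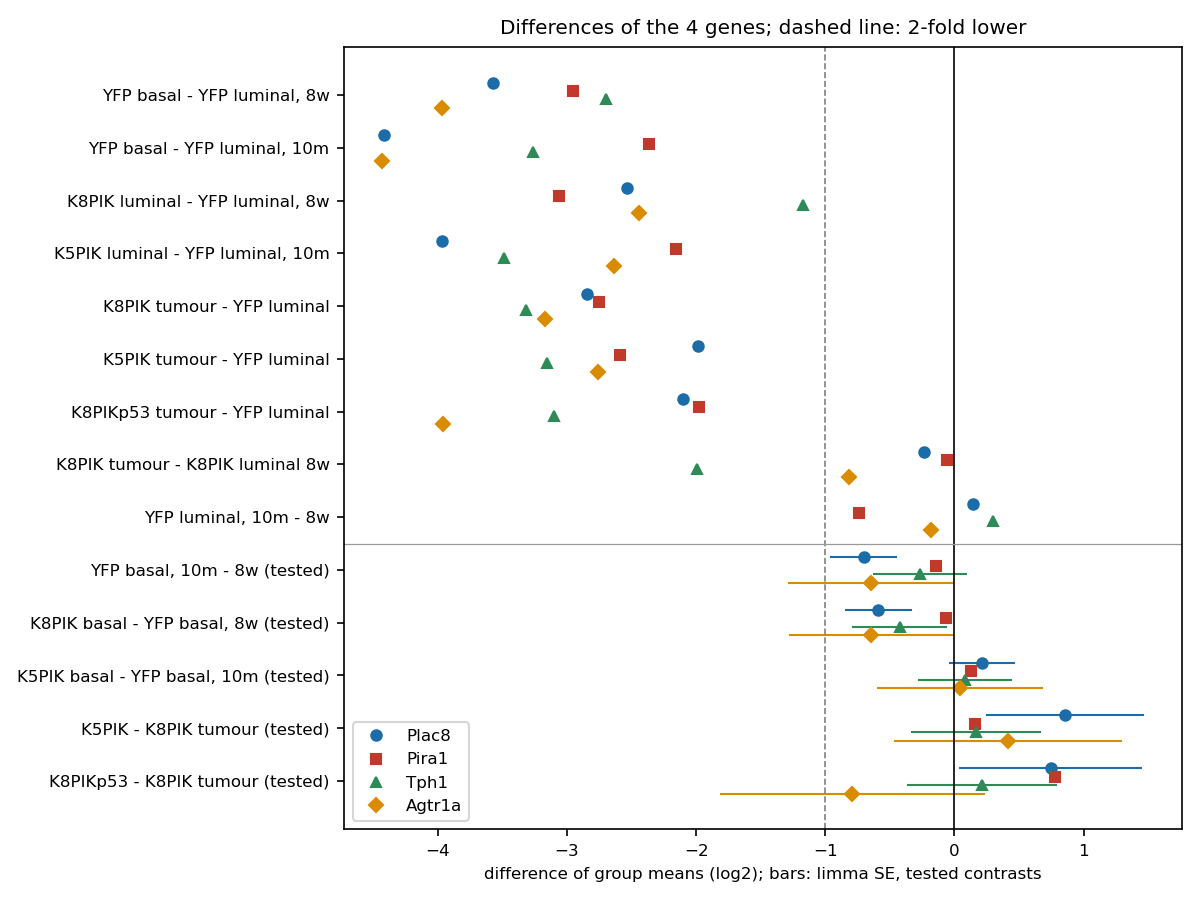
Difference of group means on the log2 scale (x axis) for each comparison (y axis); symbols mark the 4 genes, and bars show limma's SE where a gene was tested (not Pira1, which was dim there). Mutant luminal cells, YFP basal cells and tumours against YFP luminal cells lie between -1.17 and -4.43, and the tested comparisons, below the horizontal line, between -0.79 and 0.86.

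All 4 genes were at least 2-fold lower in mutant luminal cells at 8 weeks, where 1.23% of the genes tested were. The same held for all 4 in mutant luminal cells at 10 months (3.41% of genes), K8PIK tumours (2.27%), K5PIK tumours (1.92%) and K8PIKp53 tumours (8.02%), and in YFP basal cells at 8 weeks (10.1%) and 10 months (13.9%). Since the genes were chosen for this, the counts only describe them. These comparisons share the YFP luminal arrays. Of 13663 genes, 34 were at least 2-fold lower in mutant luminal cells of both times and in all 3 tumour groups, the 4 genes among them.

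From mutant luminal cells at 8 weeks to K8PIK tumours, 1 of the 4 genes was at least 2-fold lower, against 2.38% of all genes. That gene was Tph1 (-1.99), and the ranges overlapped through the single tumour at 6.70. Agtr1a differed by -0.82, Plac8 by -0.24 and Pira1 by -0.06, with overlapping ranges. With age alone, from 8 weeks to 10 months in YFP luminal cells, none of the 4 was at least 2-fold lower, against 0.897% of all genes. The age differences were -0.74 for Pira1, 0.30 for Tph1, -0.18 for Agtr1a and 0.14 for Plac8.

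Comparisons other than those described above were tested with limma over all genes. The YFP basal and tumour arrays in them are shared with the described comparisons. The genes were also chosen with earlier results of these data known, so these tests are not independent of the choice. In basal cells Plac8, Tph1 and Agtr1a did not pass. Pira1 was dim on all 8 basal arrays and entered the fit only through its level in YFP luminal cells, so its basal values are given with no test. With age, YFP basal cells had less Plac8 on both arrays (-0.70 ± 0.26, adjusted p = 0.163), while Agtr1a (-0.65 ± 0.64) and Tph1 (-0.27 ± 0.37) differed by about their SE or less. The ages overlapped for Agtr1a and not for Plac8 and Tph1, and 53.1% of all genes did not overlap in this comparison of 2 against 2 arrays. None of the 3 was called, against 1.27% of all genes.

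Basal-gate cells of K8CREERT2 mutant mice had levels of each of the 4 genes near those of the YFP basal arrays, although their driver marks the luminal layer. Their values at 8 weeks were 4.27 and 4.29 for Plac8, 3.04 and 2.86 for Pira1, 4.29 and 5.29 for Tph1 and 4.06 and 4.15 for Agtr1a. Against YFP basal cells Plac8 differed by -0.59 ± 0.26 (adjusted p = 0.330 by limma), with Agtr1a at -0.64 ± 0.64 and Tph1 at -0.42 ± 0.37. The groups overlapped for Tph1 and not for Plac8 and Agtr1a, and 45.2% of all genes did not overlap. None of the 3 was called, against 0.418% of all genes. In the same cells Foxa1, a transcription factor of luminal hormone-sensing cells, was at 7.89 and 8.04 against 3.94 to 4.56 in YFP basal cells, and was higher by 3.72 ± 0.39 (limma, adjusted p = 0.00522). It was the only one of 10 hormone-sensing markers called there.

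Basal cells of K5CREERT2 mutant mice at 10 months had 4.70 and 4.07 for Plac8, 2.92 and 3.07 for Pira1, 4.89 and 5.17 for Tph1 and 3.92 and 4.38 for Agtr1a. Differences from YFP basal cells were 0.21 ± 0.26 for Plac8, 0.08 ± 0.37 for Tph1 and 0.04 ± 0.64 for Agtr1a. None of the 3 was called, against 16.3% of all genes (2143 genes, limma). The ranges overlapped for each of them, while 62.1% of all genes did not overlap.

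Between tumour groups none of the 3 genes tested was called. Pira1 was left out there because it exceeded the 40th percentile on fewer than 2 tumours. K5PIK tumours exceeded K8PIK tumours by 0.86 ± 0.61 for Plac8 (adjusted p = 0.667), 0.42 ± 0.88 for Agtr1a and 0.17 ± 0.50 for Tph1. By limma 0% of all genes were called in that comparison, with 1225 at an unadjusted p under 0.05. K8PIKp53 tumours differed from K8PIK tumours by 0.75 ± 0.71 for Plac8, 0.21 ± 0.58 for Tph1 and -0.79 ± 1.03 for Agtr1a, with 0.325% of all genes called. Over these 5 comparisons 15 tests were made of the 3 genes, 0 passed, 2 (both Plac8) had an unadjusted p under 0.05, and adjusted p-values ran from 0.163 to 0.972. With SEs of 0.88 and 1.03, these tests of Agtr1a could miss sizeable differences.

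Agtr1a and the hormone-sensing genes tended to be high on the same arrays, with exceptions. The K5PIK tumours, for example, had hormone-sensing means of 7.30 to 7.61 and Agtr1a from 4.26 to 7.44. On the disagreeing mutant luminal arrays of 10 months, Agtr1a was 4.48 and 7.32, Pgr, the progesterone receptor, was 5.62 and 8.54, Foxa1 was 7.13 and 8.38, and Esr1, the oestrogen receptor, was 8.51 and 9.69. The mean of 10 hormone-sensing genes was 6.64 and 7.73 on these arrays, so the array with more Agtr1a had more of each. That array also had more of the luminal progenitor markers Elf5 (8.36 against 7.29) and Kit (7.39 against 6.41). It had less of the leukocyte marker Cd3e (3.42 against 6.03). Elf5 and Kit do not stand for their list, as the mean of 10 luminal progenitor markers ranged only from 9.38 to 9.52 on this pair. The other members of that list were on balance lower on the array with more Agtr1a. The hormone-sensing mean was 7.90 to 8.17 in YFP luminal cells, 7.12 and 7.36 in mutant luminal cells at 8 weeks, and 5.65 to 6.53 in basal cells.

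The hormone-sensing mean ran from 5.52 to 7.87 in K8PIK tumours, from 7.30 to 7.61 in K5PIK tumours, and was 5.58 and 6.32 in K8PIKp53 tumours. Across the 12 tumours, Agtr1a correlated with it at r = 0.774 (Spearman's rho 0.811, and r = 0.757 without the 2 tumours farthest from the median). Across the 7 K8PIK tumours alone r was 0.886 (rho 0.929, and r = 0.825 without the 2 farthest). The same r over 12 and 7 tumours was 0.550 and 0.728 for Plac8, 0.284 and 0.334 for Tph1, and -0.179 and 0.133 for Pira1. Without the 2 farthest it was 0.300 and 0.477 for Plac8, 0.045 and 0.594 for Tph1, and -0.465 and 0.393 for Pira1. With other lists, r of Agtr1a over 12 and 7 tumours was 0.471 and 0.448 for luminal markers and 0.244 and 0.202 for progenitor markers. It was -0.408 and -0.602 for basal markers and -0.326 and -0.418 for leukocyte markers (0.178 and -0.913 without the 2 farthest). These are descriptions of arrays that share a normalization and vary in their cell mixture. The part of other cell types in them was not tested: the mean of 8 fibroblast markers ran from 4.93 to 7.80 in K8PIK tumours, and the mean of 14 basal markers from 6.26 to 8.76.

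**Figure D3:**
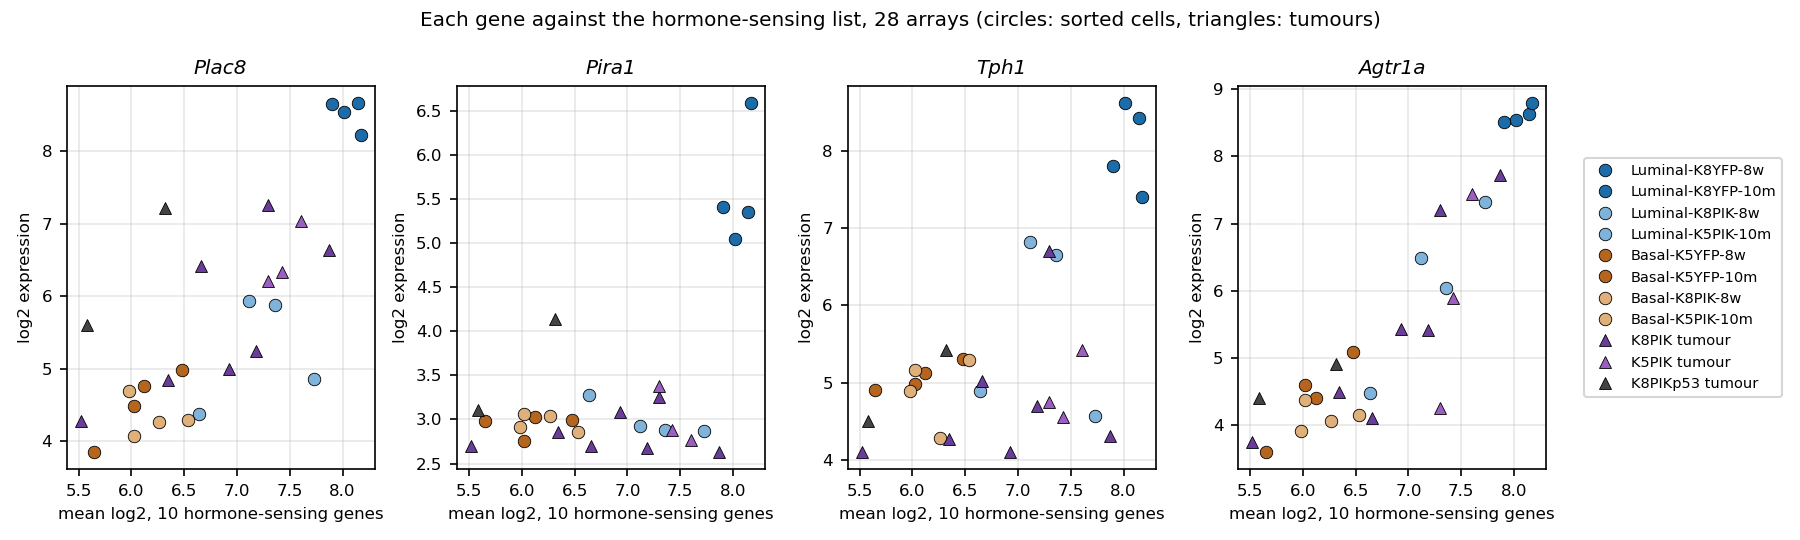
Log2 expression of each gene (y axis) against the mean log2 value of 10 hormone-sensing genes (x axis) on 28 arrays; circles are sorted cells, triangles tumours, and colours mark the groups. Arrays with a higher hormone-sensing mean tend to have more Agtr1a among sorted cells and tumours, apart from 1 K5PIK tumour at 4.26, while Pira1 stays low except on the 4 YFP luminal arrays.

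The hormone-sensing genes had a median difference below that of all genes in mutant luminal cells, with single members passing the test. At 8 weeks 1 of its 10 members, Greb1, a target of the oestrogen receptor, passed limma's test (-2.12 ± 0.36, adjusted p = 0.0309), against 0.35% of all genes, and the list's median difference was -0.85 against -0.04 for all genes. At 10 months 1 of 10 was called lower, against 6.4% of all genes, with a median of -0.72 against -0.07. Of 10 luminal progenitor markers 0 were called at 8 weeks, with a median of 0.52, and 3 were called higher at 10 months, with a median of 0.90. Krt5, a basal keratin, was higher in mutant luminal cells at 8 weeks (2.81 ± 0.32, limma adjusted p = 0.00299), while the luminal keratin Krt8 differed by 0.07 ± 0.17. Krt5 is 1 of 14 basal markers, whose mean was 6.58 and 7.30 on these arrays against 6.00 and 6.51 in YFP luminal cells. Group means of Krt14 (10.6 against 8.43) and Trp63 (6.57 against 5.36) were also higher, and that of Acta2 was not (7.45 against 7.85). How a changed mixture of luminal cells bears on the 4 genes was not tested.

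Other genes of the pathways in which Tph1, Agtr1a and Pira1 act were called about as often as genes in general. Of 52 genes listed for the serotonin, renin-angiotensin and paired-receptor pathways and present on the arrays, 39 were tested in sorted cells. At 8 weeks 0 of 39 were called by limma in mutant against YFP luminal cells, against 0.35% of all genes, with 4 at an unadjusted p under 0.05 (1441 of the 13150 genes tested). The median difference was -0.013 over 17 serotonin genes, -0.14 over 15 angiotensin genes and -0.15 over 7 paired-receptor genes, against -0.04 over all genes. At 10 months 3 were called (7.69% of those tested, against 6.4% of all genes), and 0 in a fit of all arrays or without either YFP luminal array of that time. Qdpr, which regenerates the tetrahydrobiopterin cofactor that tryptophan hydroxylase needs, was lower (-1.43 ± 0.30, adjusted p = 0.0186). The serotonin receptor Htr7 (0.67 ± 0.17) and Arrb1, an arrestin that turns off G-protein-coupled receptors (0.73 ± 0.19), were higher.

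The next enzyme after Tph1 was not detected. Ddc, the decarboxylase that turns the product of tryptophan hydroxylase into serotonin, lay between 2.59 and 3.41 and below the 40th percentile on all 28 arrays. Tph2, the form of the enzyme known from neurons, was also below it on each array, at 2.57 to 3.53. Slc6a4, the serotonin transporter, was above it on 1 mutant luminal and 1 mutant basal array, both of 8 weeks. A dim probe set does not show that a transcript is absent. Ddc, Slc6a4, Spr, Agt, Ace and Lilrb4a are named after their values were seen.

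None of the cofactor genes was called in mutant luminal cells at 8 weeks. In YFP basal against luminal cells Pts (-1.31 at 8 weeks and -1.79 at 10 months), which makes the cofactor, and Qdpr (-1.02 and -1.64) were lower by limma's test. Gch1, the first enzyme of that route, had group means of 7.46 and 8.08 in YFP luminal cells, 8.23 in mutant luminal cells at 8 weeks and 8.05 at 10 months. Pts was at 6.53 and 6.50 in YFP luminal cells and 6.50 and 7.61 in mutant ones. Spr, the last enzyme of the route, stayed between 8.53 and 8.86 in these 4 groups.

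Single serotonin genes differed between the sorted layers. In YFP basal cells Maob, an enzyme that degrades amines, was higher (2.56 ± 0.51 and 2.51 ± 0.51 at the 2 times), as was the receptor Htr1d (1.49 ± 0.19 and 2.07 ± 0.19), while Ido1, which diverts tryptophan from serotonin to kynurenine, was lower (-2.17 ± 0.67 and -4.53 ± 0.67). Of the 39 pathway genes 10 were called at 8 weeks (25.6%, against 30.3% of all genes) and 15 at 10 months (38.5%, against 43.4%), shares near those of all genes. The 8-week count is 5 without replicate 1 of YFP basal cells. Of 12 endothelial markers 9 were called higher in YFP basal cells at both times, with list means of 6.07 to 7.36 against 4.91 to 5.80 in YFP luminal cells, and their part in these differences was not tested. In K8PIK tumours Maob was higher than in YFP luminal cells (2.04 ± 0.64, limma adjusted p = 0.0466), a comparison whose 3 pathway calls became 0 or 1 without any single YFP luminal array or K8PIK replicate 1, 6 or 7. It was also higher in K5PIK tumours (2.78 ± 0.78, adjusted p = 0.0368), as was the serotonin receptor Htr4 (2.29 ± 0.59, adjusted p = 0.0235). In K8PIKp53 tumours Gch1 (-1.63 ± 0.43, adjusted p = 0.0104) and Pts (-1.13 ± 0.32, adjusted p = 0.0146) were lower. Ido1 was at 10.0 to 10.8 in K5PIK tumours and ran from 3.66 to 10.0 in K8PIK tumours. Htr4 was at 5.77 to 6.53 in K5PIK tumours and 3.16 to 5.91 in K8PIK tumours, a difference that limma did not call (1.95 ± 0.55, adjusted p = 0.448).

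**Figure D4:**
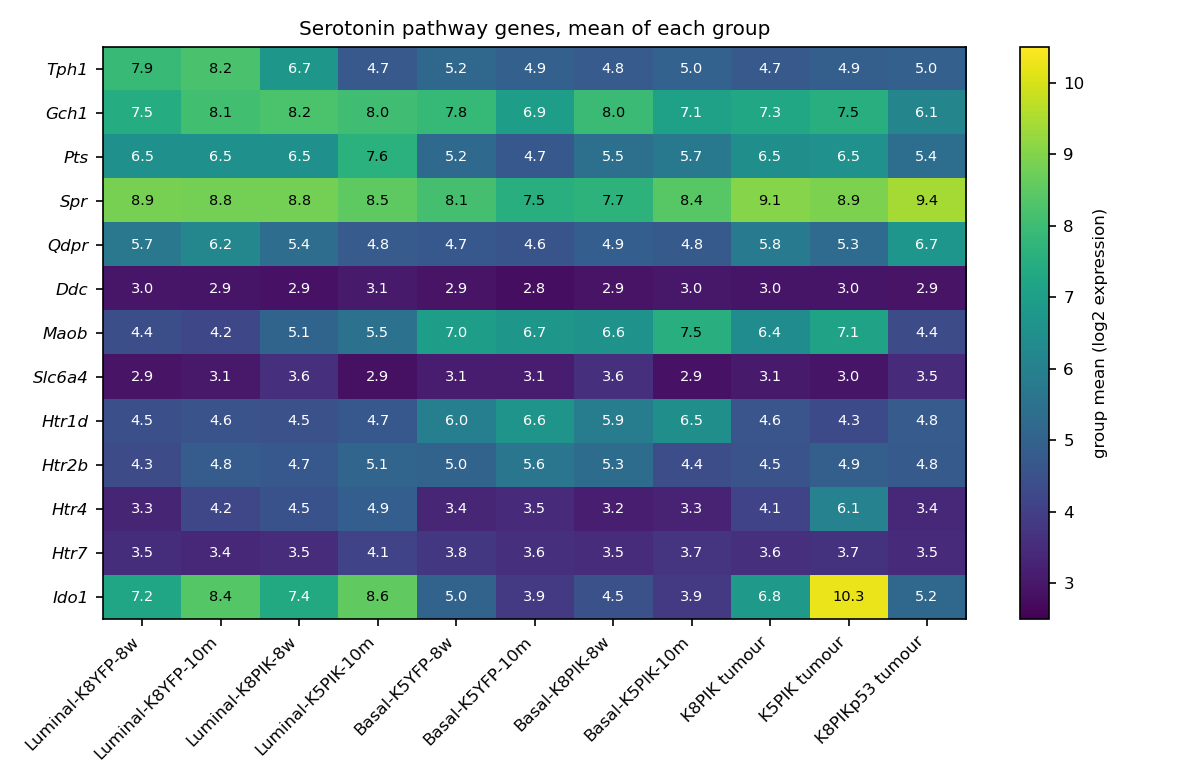
Mean log2 expression of Tph1 and 12 other serotonin pathway genes (y axis) in 11 groups (x axis); colour and printed numbers give the group mean. Tph1 has 7.91 and 8.21 in YFP luminal cells and 6.74 and 4.73 in mutant luminal cells, Gch1 has 8.23 and 8.05 in the latter, and Ddc lies between 2.79 and 3.07.

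Agtr1a was the sole angiotensin receptor above the dim limit. Agtr1b, its close copy, and Agtr2 were below the 40th percentile on all 28 arrays, at 2.71 to 3.44 and 2.57 to 3.03. Agt, the precursor of angiotensin, had group means of 5.13 and 6.05 in YFP luminal cells, 6.24 and 6.40 in mutant luminal cells and 6.22 in K8PIK tumours, and Ace, the converting enzyme, had 7.22 and 6.93, then 6.71 and 7.24, and 7.89. In YFP basal cells Agtrap, which promotes uptake of the receptor from the cell surface, was lower than in luminal cells (-0.99 ± 0.35 at 8 weeks and -1.57 ± 0.35 at 10 months, limma). Mme, a membrane peptidase known as a basal surface marker, was higher (1.83 ± 0.30 and 2.73 ± 0.30).

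Some other genes of the angiotensin list passed the test. Anpep, an aminopeptidase, was higher in mutant than in YFP basal cells at 10 months (2.02 ± 0.29, adjusted p = 0.00250) and in K8PIK tumours than in YFP luminal cells (0.75 ± 0.23, adjusted p = 0.0453). Nr3c2, the mineralocorticoid receptor, was also higher in those basal cells (1.63 ± 0.28), as was the lysosomal peptidase Ctsa (0.91 ± 0.19). Pathway genes called in that basal comparison numbered 6 of 39, or 15.4%, against 16.3% of all genes, and 2 without YFP basal replicate 1 or mutant replicate 2. In the same comparison 6 of 12 endothelial markers were called lower, and their part was not tested. Rnpep, an aminopeptidase, was the single pathway gene of 39 called between K8PIKp53 and K8PIK tumours (-1.70 ± 0.26, adjusted p = 0.0291), or 2.56% against 0.325% of all genes. That count was 0 with the replicate block, without K8PIKp53 replicate 1 and without any of K8PIK replicates 4 to 7, and 7 without K8PIK replicate 3. Against YFP luminal cells 3 of 41 pathway genes were called in K8PIK tumours (7.32%, against 10.6% of all genes), 3 in K5PIK tumours (7.32%, against 6.92%) and 10 in K8PIKp53 tumours (24.4%, against 24%). Between K8PIK tumours and mutant luminal cells 0 were called (2.5% of all genes, with 8 pathway genes at an unadjusted p under 0.05), and 0 with age in YFP luminal cells (0.0608%, with 2). Among relatives of Plac8, Plac8l1 ran from 3.85 to 5.56 and Cnfn from 4.44 to 5.45 on the 28 arrays, and neither was called by limma in the 14 comparisons.

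The genes whose levels most resembled each of the 4 were found by Pearson's r over the 28 arrays, among 13659 genes. Agtr1a had the closest neighbours: Dipk1a, a membrane protein of the secretory route (r = 0.921), Prex1, an exchange factor for the GTPase Rac (0.913), and Pgr (0.910). Dipk1a separated the disagreeing mutant luminal arrays of 10 months as well, at 4.69 and 6.48. Plac8 was nearest to the kinase gene Nek7 (0.876), the secreted protease inhibitor gene Wfdc2 (0.875) and the Rac regulator Chn1 (0.874). Wfdc2, one of the 13 luminal markers, was at 10.7 and 10.8 in YFP luminal cells at 8 weeks and at 9.26 and 9.46 in mutant ones.

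Pira1 was nearest to the adhesion genes Nrxn3 (0.873) and Dscam (0.860) and to the folate receptor gene Folr2 (0.855). Nrxn3 was at 4.87 and 6.54 in YFP luminal cells at 8 weeks and 5.97 and 6.30 at 10 months, and at 3.38 and 3.83, then 3.19 and 3.22, in mutant luminal cells. Tph1 was nearest to the potassium channel gene Kcnj11 (0.847), Chmp4b, a membrane scission gene (0.835), and Kank3 (0.825). Kcnj11 had means of 7.98 and 7.54 in YFP luminal cells, 6.92 in mutant luminal cells at 8 weeks and 5.86 at 10 months, the same order as Tph1. Of the 12, 2 were also chosen by Spearman's rho and 1 by Pearson's r over the 11 group means. Since the 4 genes were chosen for a shared pattern, their correlation over all arrays follows from the choice. Over the 12 tumours alone Plac8 and Tph1 correlated at 0.759, Plac8 and Agtr1a at 0.590 and Tph1 and Agtr1a at 0.428, as a description of arrays that share a normalization. Pira1, dim on all but 1 tumour, correlated at 0.414 with Plac8, 0.395 with Tph1 and -0.156 with Agtr1a.

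Promoter sequences are shown because the 4 genes were each highest in normal luminal cells, although they were lower elsewhere to differing extents. RefSeq's promoter table (GRCm38.p6) gives 250 bases before and 50 after a gene's start, with 2 starts for Plac8, 1 for Pira1, 2 for Tph1 and none for Agtr1a. Capitals mark matches to any of 5 motifs searched on both strands. The motif of forkhead factors such as Foxa1 was spelled TGTTTAC and the motif of GATA factors was spelled AGATAA. The motif of ETS factors was spelled CCGGAA and the core of an oestrogen receptor site was spelled AGGTCA. The TATA box was spelled TATAAA, and the matches found do not overlap. Shown are the downstream starts of Plac8 (chr5:100563047-100563346) and Tph1 (chr7:46667328-46667627), which hold the matches, and the start of Pira1 (chr7:3739868-3740167), all on the minus strand and written 5′ to 3′ along the gene.
Plac8: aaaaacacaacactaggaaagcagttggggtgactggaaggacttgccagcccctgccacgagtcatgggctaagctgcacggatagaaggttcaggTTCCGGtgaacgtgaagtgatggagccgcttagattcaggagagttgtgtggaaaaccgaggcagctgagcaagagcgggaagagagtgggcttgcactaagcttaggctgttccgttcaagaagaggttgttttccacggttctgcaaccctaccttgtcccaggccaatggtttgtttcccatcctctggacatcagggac
Pira1: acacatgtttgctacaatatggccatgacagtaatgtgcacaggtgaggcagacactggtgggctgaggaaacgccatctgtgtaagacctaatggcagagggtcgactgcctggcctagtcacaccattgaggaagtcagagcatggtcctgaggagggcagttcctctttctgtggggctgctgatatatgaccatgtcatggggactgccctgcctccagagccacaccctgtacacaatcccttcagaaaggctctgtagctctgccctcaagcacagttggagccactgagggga
Tph1: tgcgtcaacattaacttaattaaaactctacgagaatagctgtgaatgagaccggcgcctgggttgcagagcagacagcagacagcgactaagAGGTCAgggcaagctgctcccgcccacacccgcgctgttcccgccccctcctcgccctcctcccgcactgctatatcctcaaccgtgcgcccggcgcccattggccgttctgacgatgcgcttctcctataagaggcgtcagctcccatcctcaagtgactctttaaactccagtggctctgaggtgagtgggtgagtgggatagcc

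The 3 genes share no motif in these windows. Plac8 has 1 match, the ETS letters on the opposite strand at position -153 from the start, and Tph1 has 1, the oestrogen receptor letters at position -157. Of 32851 promoters of this length in the table, 14.9% hold the former letters and 16.3% the latter, so each is common. Pira1 and the upstream starts of Plac8 (chr5:100572156-100572455) and Tph1 (chr7:46672488-46672787) have none of the 5. The forkhead letters are in 3.65%, GATA in 11.2% and the TATA box in 13.6% of promoters. A match to such letters is a description, not a binding site.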

How the data were processed

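RNA from 28 samples of sorted mouse mammary cells was hybridised to Affymetrix arrays after biotin labelling, per the labels. The deposited table holds log2 intensities of 45141 probe sets, made by the authors with R 2.14.0 per the submitters' processing notes. The background correction and the normalization are not given in the sources used here, and the values were used as deposited. Of 29449 annotated probe sets, 28898 carry 1 symbol, 551 with several were left out, and 28689 matched RefSeq. The brightest probe set on average stood for each of 17097 genes.

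Genes above the 40th percentile on at least 2 arrays of a fit were tested with limma 3.58.1 in R 4.3.3 (1 mean per group, Benjamini-Hochberg, adjusted p under 0.05): 13150 genes on 16 sorted arrays, 13244 on 12 tumour arrays, and 13663 on all 28 arrays for tumours against sorted cells, where the reference is the mean of both YFP luminal groups. The code was tested on simulated data. Replicate numbers were not used to pair samples in the main fits. Deviations from the group means correlated above 0.1 in 11 of 28 same-numbered pairs of sorted cells and 1 of 7 of tumours. These correlations ran from -0.078 through a median of 0.076 to 0.380 in sorted cells. In tumours they ran from -0.085 through a median of 0.066 to 0.199. Whether same-numbered samples belong together was not tested.

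The 4 genes and all gene lists were chosen with earlier results of these data known. Other genes were named by rule: per gene the 3 with the highest r, up to 4 called genes per pathway list with the largest change, marker genes, and family members. Exceptions are stated. Alternatives were other arrays in the fit, the mean of probe sets, other dim filters, a trend and robust prior, 2 normalizations, a replicate block and leaving out each array. The files name no genome build. Some genes are not reported here.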

Additional observations from a re-analysis of the deposited data

Results flagged for a closer look

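1 value stood apart within its group. Tph1 in K8PIK tumours had its highest array at 6.70, and the gap to the next tumour (5.03) was 0.645 of the range of the 7 tumours, above the critical share of 0.568 in Dixon's test. Chance marks about 1 in 20 groups in this way, and 16 genes were examined in these 7 tumours. Without this tumour the difference of K8PIK tumours from mutant luminal cells at 8 weeks was -2.32 for Tph1, against -1.99 with it.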

How the results depend on the processing

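Of 499 alternative values of the described differences, 490 kept their sign and moved by less than the spread between replicates. Where 2 arrays were compared with 2, leaving out 1 array could not move a difference beyond that spread. The count of 490 therefore does not measure how stable such differences were. Agtr1a in mutant luminal cells at 10 months went from -2.63 to -1.21 or -4.05 and was still counted among the 490. A further 6 kept their sign and moved by more, and 3 changed sign. Of 249 alternative values of the tested differences 237 kept their sign and 12 did not, and no alternative gave a call among them. When single arrays were left out, age in YFP luminal cells ranged from -0.069 to 0.36 for Plac8 and from -0.21 to 0.81 for Tph1 (-0.10 without 10-month replicate 1). In mutant against YFP basal cells at 8 weeks Pira1, dim there, ranged from -0.15 to 0.031 and Tph1 from -0.92 to 0.075. At 10 months Plac8 ranged from -0.10 to 0.53, Tph1 from -0.053 to 0.22 and Agtr1a from -0.45 to 0.54. In K5PIK against K8PIK tumours Tph1 ranged from -0.094 to 0.49 and Agtr1a from -0.37 (without K5PIK replicate 3) to 1.22 (without K5PIK replicate 1). In K8PIKp53 against K8PIK tumours Plac8 ranged from -0.061 (without K8PIKp53 replicate 2) to 1.55 and Tph1 from -0.25 to 0.67, and with the replicate block Agtr1a was 1.02.

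The number of the 4 genes at least 2-fold lower ranged from 3 to 4 in mutant luminal cells at 8 weeks, from 0 to 1 for age in YFP luminal cells and from 1 to 2 between K8PIK tumours and mutant luminal cells (2 with the replicate block) when single arrays were left out. Pathway genes called, on leaving out single arrays, ranged from 0 to 1 in mutant luminal cells at 8 weeks, 0 to 5 in those at 10 months, 5 to 11 between YFP layers at 8 weeks, 0 to 3 in K8PIK tumours against YFP luminal cells, 2 to 4 in mutant basal cells at 10 months and 0 to 7 in K8PIKp53 against K8PIK tumours. A fit of all arrays gave 0 in mutant luminal cells at 10 months and 6 for K8PIKp53 against K8PIK tumours. K8PIK tumours against YFP luminal cells gave 0 in a fit of those arrays alone, 1 with no dim filter and 8 with the replicate block. The block gave 10 in mutant basal cells at 10 months, 2 for K5PIK against K8PIK tumours and 0 for K8PIKp53 against K8PIK tumours. The mean of probe sets gave 1 for age in YFP basal cells. The causes were not tested.

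Counts over all genes moved more: a fit of all arrays called 4 genes in place of 46 in mutant luminal cells at 8 weeks, 100 in place of 841 at 10 months, and 0 in place of 167 for age in YFP basal cells; the replicate block called 150 in place of 0 in K5PIK against K8PIK tumours. Signal over background limits Pira1, which was dim on 23 of 28 arrays, and groups of 2 arrays limit all comparisons.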
